A study of Mus musculus with 12 samples.

Results

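Messenger RNA of 10 genes of the Notch pathway was followed in the mouse abdominal aorta: the receptors Notch1, Notch2, Notch3 and Notch4, the ligands Jag1 and Dll4, and the target genes Hey1, Hey2, Heyl and Hes1. They were taken by symbol from a table of 55092 features (54532 with an Ensembl gene identifier). All 10 were found, each once, and all 10 passed the filter on low values. The aortas came from 4 groups of 3 male mice with floxed Ccn2, the gene of a matricellular protein also called connective tissue growth factor. CCN2fl/fl mice, which carry no Cre, received saline (CFS) or angiotensin II (CFA). CCN2SMCΔ mice, which also carry Myh11-Cre-ERT2, received saline (CSS) or angiotensin II (CSA). Tamoxifen was given on 5 consecutive days from 8 weeks of age, followed by 2 weeks without it, and then by osmotic pumps delivering saline or angiotensin II (Ang II, a pressor peptide, at 500 ng/kg/min), with tissue taken on day 7. The Cre is driven by the Myh11 promoter and so acts in smooth muscle, and the floxed controls differ from the CCN2SMCΔ mice in the Cre transgene as well as in the recombined allele. Each mouse gave 1 library and is named by its group and number (CFS68, CSA03), so p-values measure the spread between these mice.

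Notch receptors are cell surface proteins that are activated by ligands of the Jagged and Delta-like families on a neighbouring cell. Ligand binding leads to cleavage of the receptor, and the freed intracellular part enters the nucleus, joins the DNA-binding protein RBPJ and a Mastermind coactivator, and switches on Hey and Hes genes, which encode transcriptional repressors. In arteries Notch3 is known as the receptor of smooth muscle and pericytes, Notch4, Dll4 and much of Notch1 belong to endothelium, Notch2 and Jag1 are made by several cell types of the wall, and Hey2 and Heyl are targets of the pathway in smooth muscle.

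The start regions of Hey2 and Notch3 are shown because Hey2 was among the genes that fell in CSA mice, while Notch3 is the receptor that differed most between CSA and CFA mice. RefSeq start regions of the build GRCm38.p6, each with 250 bases before and 50 after the start, were at hand for 7 of the 10 genes, namely Notch1, Notch2, Notch3, Notch4, Jag1, Dll4 and Hey2. The letters GTGGGAA, a core sequence bound by RBPJ, were searched on both strands. They occurred 2 times in the Hey2 region and 0 times in the other 6, and 6.4% of the 32851 start regions of this length held them. A match of letters is a description and not a binding site. The 250 bases before each start are written 5′ to 3′ on the strand of the gene, and capitals mark GTGGGAA or its reverse complement. Hey2 lies at chr10:30842784-30843033 and Notch3 at chr17:32166891-32167140, both on the minus strand, and the last Hey2 line gives the match that spans the start, at chr10:30842771-30842797.
Hey2 before the start: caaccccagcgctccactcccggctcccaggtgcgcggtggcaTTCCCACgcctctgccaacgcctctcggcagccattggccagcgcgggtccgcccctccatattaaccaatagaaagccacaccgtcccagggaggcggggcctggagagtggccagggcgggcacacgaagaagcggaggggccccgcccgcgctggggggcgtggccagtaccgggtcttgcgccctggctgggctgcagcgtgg
Notch3 before the start: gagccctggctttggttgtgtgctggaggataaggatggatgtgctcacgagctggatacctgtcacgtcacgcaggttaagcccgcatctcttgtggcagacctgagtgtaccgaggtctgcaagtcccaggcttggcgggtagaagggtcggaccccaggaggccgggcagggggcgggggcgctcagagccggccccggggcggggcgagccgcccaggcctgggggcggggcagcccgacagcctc
Hey2 across the start: gggctgcagcGTGGGAAagaacctcca

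The deposited values are FPKM, the fragments on a gene per unit of its length and of library size, and levels can therefore be compared between genes. Recovered fragments numbered 14558580 to 23107811 per library, with the fewest in CSA03. No member was at 0 in any library, and the fewest fragments behind any value were 40 for Hey1, 107 for Dll4, 160 for Notch4, 167 for Hes1, 202 for Heyl, 283 for Hey2, 369 for Notch1, 395 for Notch3, 1513 for Jag1 and 1583 for Notch2. Ccn2, the targeted gene, was lower in every CSA mouse (255, 331 and 399 FPKM) than in every CFA mouse (1013, 1105 and 564 FPKM), with a log2 fold change of -1.41 (adjusted p = 0.00622 by limma with Benjamini-Hochberg adjustment over all genes). In saline its levels overlapped, with 436, 640 and 587 FPKM in CSS and 710, 1108 and 480 FPKM in CFS, so whole-aorta RNA did not separate the genotypes there (adjusted p = 1 by limma).

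CSA03 stood apart from its group. Its root mean square distance from CSA01 and CSA02 was 1.21 and 1.20 on the log2 scale, where those 2 lay 0.505 apart and the other replicate pairs 0.586 to 0.743. Its deviation from them fell with the GC content of the transcript (Spearman -0.64 across 14407 genes, which are not independent), and the 4 receptor transcripts, at 53.6% to 61.2% GC, lie above the median of 49.7%. So do Heyl at 55.2%, Dll4 at 55.9%, Hey1 at 52.6% and Hes1 at 50.7%, while Jag1 lies at 48.8% and Hey2 at 45.9%. The mouse CFS69 had the lowest summed endothelial marker level, 168 FPKM against 314 to 613 in the other 8 mice outside CSA. For CSA against CFA the fold change of each member is given below with and without CSA03.

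In the aortas of control mice the target Heyl was the most abundant of the 10 genes and the target Hey1 and the ligand Dll4 the least. In CFS mice the mean levels were 52.9 FPKM for Heyl, 25.0 for Notch3, 19.2 for Notch2, 18.2 for Hey2, 17.2 for Jag1, 9.72 for Hes1, 6.20 for Notch1, 5.79 for Notch4, 2.40 for Dll4 and 1.52 for Hey1. In this order Heyl lay above Notch3, Jag1 above Hes1 and Hes1 above Notch1 in every CFS mouse, while every other pair of neighbours overlapped. In CSA mice the order was different: Jag1 led with 15.3 FPKM, followed by Notch2 with 13.2, Hes1 with 8.87 and Notch3 with 7.23, and Heyl had come down to the fifth place with 4.52 and Hey2 to the seventh with 3.50. Every neighbouring pair in CSA overlapped except Dll4, at 2.86 FPKM, and Hey1, at 1.42.

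**Figure D1:**
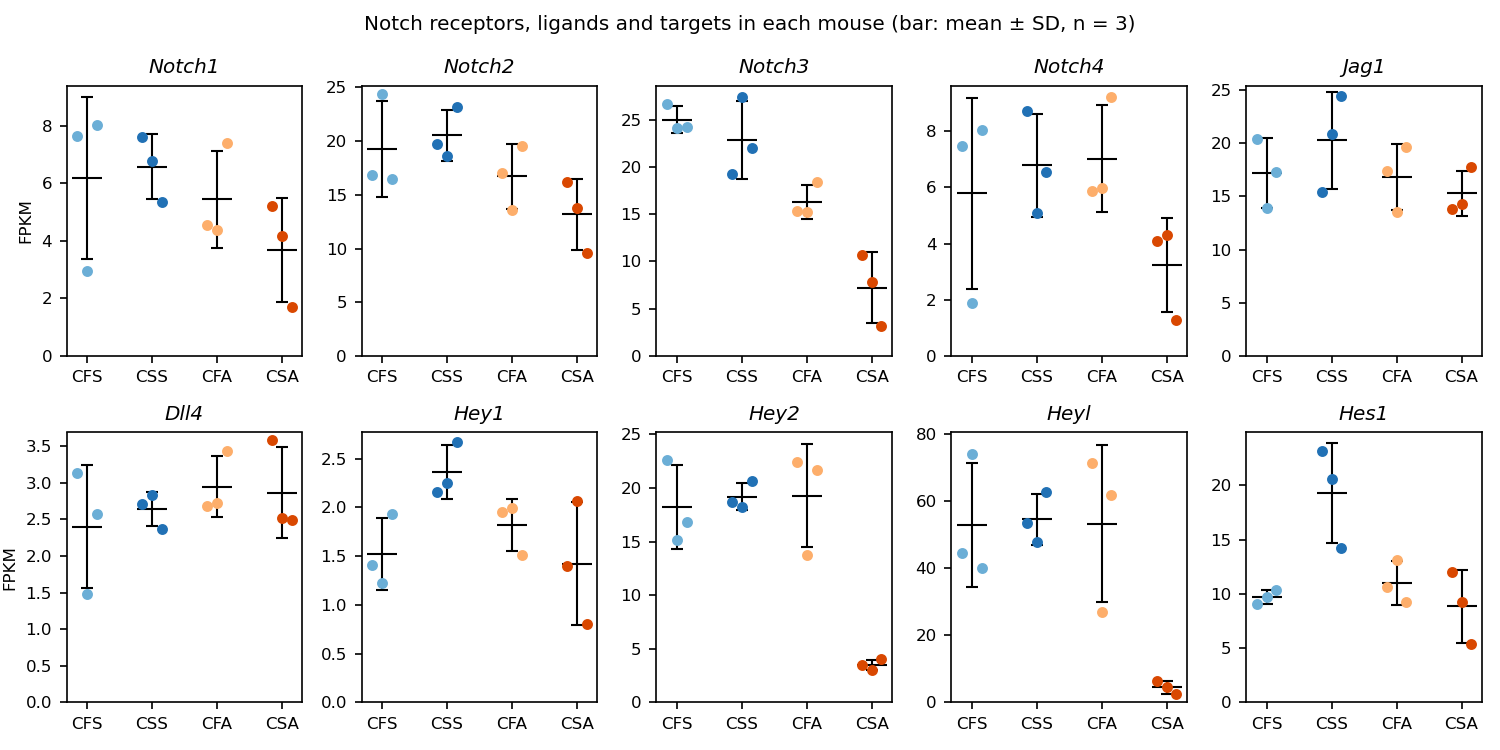
FPKM of the 10 genes (vertical axes, linear from 0) in each mouse of the groups CFS, CSS, CFA and CSA (points), with the mean and SD of 3 mice (bars). Heyl lies between 2.58 and 6.44 and Hey2 between 3.04 and 4.02 in CSA, below all 9 other mice.

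The main comparison asked how Ang II-infused aortas differ with the Ccn2 deletion in smooth muscle (CSA against CFA). The test was limma on log2(FPKM + 0.1), and a call needed a p below 0.05 after Benjamini-Hochberg adjustment across 14676 tested genes together with a log2 fold change beyond 1.5 in size. Of the 10 members 2 were called lower, Heyl and Hey2, where 8.27% of all tested genes were called lower. None was called higher, where 8.95% of all genes were, and at an unadjusted p under 0.05 there were 3 members, all lower, where 25.6% of all genes were lower. By adjusted p alone 3 members were lower, Notch3 being the third, where the share of all genes was 21.2%. All 10 fold changes were below 0 as deposited, with a median of -0.53 (-0.21 without CSA03) beside -0.04 over all genes, although that of Dll4 turned above 0 under scaling to equal library sums (0.028), without CSA03 (0.037) and with the GC trend removed (0.16).

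Heyl, a repressor of the Hey family, was at 71.3, 26.8 and 61.9 FPKM in the CFA mice and at 6.44, 4.54 and 2.58 FPKM in the CSA mice. The groups were far apart, and the lowest CFA mouse was still above the highest CSA mouse. The log2 fold change was -3.51 ± 0.41 (SE), an 11.4-fold difference on this scale, with an adjusted p of 5.87e-05 by limma. Without CSA03 it was -3.16 (adjusted p = 0.000171, limma), and it was -3.33 with the GC trend removed from each library. The lowest CFA value came from CFA72, without which the fold change was -3.94.

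Hey2, a repressor of the same family known from arterial development, was at 22.4, 13.7 and 21.7 FPKM in CFA and at 3.45, 3.04 and 4.02 FPKM in CSA. All 3 CSA mice lay close together and well below CFA, with CSA03 the highest of them. The log2 fold change was -2.40 ± 0.21 (SE), or 5.29-fold, with an adjusted p of 9.18e-06 by limma. Without CSA03 it was -2.50 (adjusted p = 1.21e-05, limma).

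Hey1 and Hes1, the other targets, did not pass the test. Hey1 was at 1.95, 1.99 and 1.52 FPKM in CFA and at 1.40, 2.06 and 0.80 FPKM in CSA, with a log2 fold change of -0.42 (95% interval -1.08 to 0.25) that was -0.081 without CSA03. Hes1, a repressor that many cell types use, was at 10.7, 13.2 and 9.22 FPKM in CFA and at 12.04, 9.23 and 5.35 FPKM in CSA. Its groups overlapped, its log2 fold change was -0.37 (95% interval -0.98 to 0.24), and without CSA03 it was -0.05.

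Among the receptors Notch3 differed most. It was at 15.3, 15.2 and 18.4 FPKM in CFA and at 10.7, 7.82 and 3.19 FPKM in CSA. The lowest mouse was CSA03. The log2 fold change of -1.32 ± 0.34 (SE) had an adjusted p of 0.00995 by limma and was short of the fold limit. Without CSA03 it was -0.82 (adjusted p = 0.00252, limma), with the GC trend removed it was -0.92 (adjusted p = 0.000844, limma), and without CSA01 it passed the fold limit at -1.68 (adjusted p = 0.00191, limma). In a fit of the CSA and CFA libraries alone its adjusted p was 0.062 by limma.

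The other receptors did not pass the test. Notch4, a receptor of endothelium, was at 5.88, 5.97 and 9.21 FPKM in CFA and at 4.08, 4.31 and 1.295 FPKM in CSA. Its log2 fold change was -1.24 (adjusted p = 0.103 by limma) and -0.70 without CSA03. Notch1, used by endothelium and by blood cells, ranged from 4.37 to 7.39 FPKM in CFA and from 1.69 to 5.20 in CSA, with a log2 fold change of -0.65 (95% interval -1.64 to 0.34) that was -0.18 without CSA03. Notch2 ranged from 13.6 to 19.6 FPKM in CFA and from 9.58 to 16.2 in CSA, with a log2 fold change of -0.36 (95% interval -0.85 to 0.14) that was -0.15 without CSA03. Of the exonic bases of Notch1, 9.8% are shared with other annotated genes, as are 6.0% for Notch3, 5.6% for Dll4 and 5.0% for Notch2. Part of the fragments of these genes may have been assigned elsewhere.

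The ligands were near 0 in this comparison. Jag1, the ligand that smooth muscle and endothelium both make, was at 17.4, 13.5 and 19.6 FPKM in CFA and at 13.8, 14.3 and 17.7 FPKM in CSA, a log2 fold change of -0.13 (95% interval -0.60 to 0.34) that was -0.24 without CSA03. Dll4, an endothelial ligand, was at 2.68, 2.73 and 3.43 FPKM in CFA and at 3.58, 2.52 and 2.49 FPKM in CSA, a log2 fold change of -0.05 (95% interval -0.61 to 0.51) that was 0.037 without CSA03. The groups of both ligands overlapped, and neither interval reached the fold limit.

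**Figure D2:**
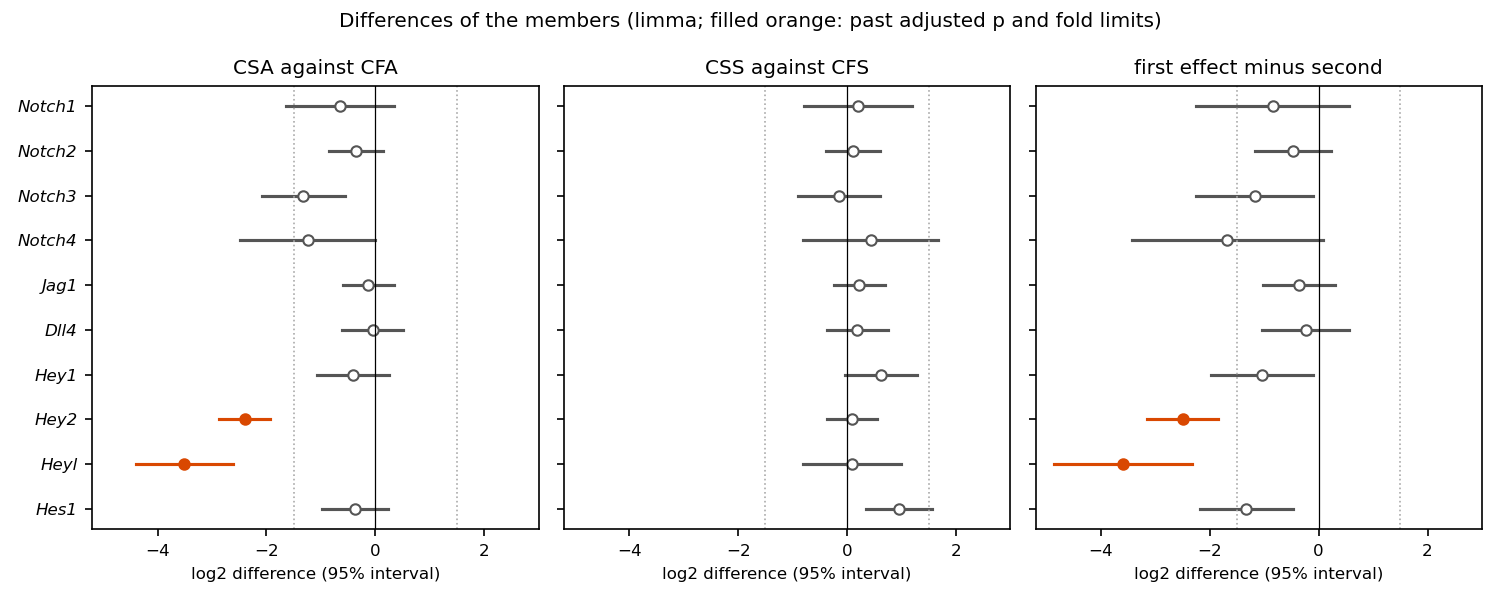
Log2 differences (points) with 95% intervals (lines) of the 10 genes for CSA against CFA, CSS against CFS and the difference between these 2 effects, with dotted lines at the fold limit of 1.5. Only Heyl (-3.51) and Hey2 (-2.40) pass both limits in CSA against CFA, and none does in CSS against CFS.

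Without Ang II the genotypes were compared as CSS against CFS. No member was called by limma, where 0.0136% of all genes were called in either direction, and 1 member, Hes1, had an unadjusted p under 0.05, where 6.30% of all genes did. Hes1 was at 23.2, 20.6 and 14.2 FPKM in CSS and at 9.08, 9.74 and 10.3 FPKM in CFS, groups that did not overlap, which held for 20.4% of all genes. Its log2 fold change was 0.96 ± 0.28 (SE), with an adjusted p of 0.475 by limma, so the difference did not survive adjustment over all genes, and without CFS69 it was 0.960 (adjusted p = 0.733, limma). Hey1 was also without overlap, at 2.16, 2.25 and 2.67 FPKM in CSS and at 1.41, 1.23 and 1.94 FPKM in CFS (log2 fold change 0.62, adjusted p = 0.818 by limma, and 0.48 without CFS69). Heyl and Hey2 differed by 0.09 each, with 95% intervals of -0.80 to 0.99 and -0.37 to 0.55, and Notch3 by -0.14 (95% interval -0.90 to 0.61). CFS69 was the lowest CFS mouse for Notch1 (2.96 FPKM against 7.63 and 8.01), for Notch4 (1.88 against 7.46 and 8.03) and for Dll4 (1.48 against 3.13 and 2.57), and it was also the lowest for the endothelial marker Pecam1 (38.3 FPKM against 199 and 188). Without it the fold changes of Notch1, Notch4 and Dll4 turned from 0.20, 0.44 and 0.19 to -0.26, -0.22 and -0.11.

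Ang II in CCN2fl/fl mice was compared as CFA against CFS. No member was called by limma, where 0.0273% of all genes were called in either direction, and 0 members had an unadjusted p under 0.05, where 9.42% of all genes did. Notch3 was the member without overlap, at 26.6, 24.1 and 24.3 FPKM in CFS beside the 15.2 to 18.4 FPKM in CFA given above (log2 fold change -0.62, adjusted p = 0.644 by limma), and 20.2% of all genes did not overlap here. Heyl and Hey2 differed by -0.05 and 0.07, with 95% intervals of -0.95 to 0.84 and -0.39 to 0.53.

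Ang II in CCN2SMCΔ mice was compared as CSA against CSS, which uses the same CSA mice as the main comparison. Of the members 3 were called lower, Heyl, Hey2 and Notch3, where 9.36% of all genes were, and 5 were lower by adjusted p alone, where 23.9% of all genes were. Heyl went from 53.4, 47.7 and 62.7 FPKM in CSS to the CSA values above, a log2 fold change of -3.65 (adjusted p = 3.14e-05, limma). Hey2 was at 18.7, 18.2 and 20.6 FPKM in CSS, a log2 fold change of -2.43 (adjusted p = 5.63e-06, limma). Notch3 was at 19.3, 27.4 and 21.96 FPKM in CSS, a log2 fold change of -1.80 (adjusted p = 0.00134, limma) that was -1.299 without CSA03, short of the fold limit (adjusted p = 0.000113, limma). The other 2, Hes1 with -1.16 (adjusted p = 0.00524, limma) and Notch2 with -0.66 (adjusted p = 0.0316, limma), were at -0.84 (adjusted p = 0.00755, limma) and -0.45 (adjusted p = 0.0826, limma) without CSA03.

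The interaction asked whether the effect of genotype differed between Ang II and saline. It was called for Heyl and Hey2, where 7.31% of all genes were called lower, and was past the adjusted p alone for 3 members, where 13.7% of all genes were. Heyl had a difference of effects of -3.60 (95% interval -4.86 to -2.33, adjusted p = 0.00114 by limma) and Hey2 of -2.49 (95% interval -3.15 to -1.84, adjusted p = 0.000217 by limma). Without CSA03 these were -3.25 (adjusted p = 0.00152, limma) and -2.59 (adjusted p = 0.000142, limma). Hes1 had -1.33 (95% interval -2.19 to -0.46, adjusted p = 0.0281 by limma), made up of a higher level in CSS than in CFS and a level in CSA that overlapped CFA. Without CSA03 it was -1.004 (adjusted p = 0.021, limma). Over 19 alternatives the adjusted p of Hes1 ran from 0.00987 to 0.0711 by limma, the highest without CSS54 (-1.18). Hes1 passed the fold limit without CSS56 (-1.53) and, together with Notch3 (-1.54), without CSA01 (-1.58).

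Levels of the receptors and of the targets were next summed, a summary chosen after the values were seen. The 4 receptors summed to 42.8, 39.1 and 54.6 FPKM in CFA and to 36.1, 30.04 and 15.8 FPKM in CSA, and the 4 targets to 106, 55.7 and 94.3 FPKM in CFA and to 23.3, 18.9 and 12.7 FPKM in CSA. Both sums were thus lower in every CSA mouse than in every CFA mouse. Notch3 made up 36.1% ± 2.6 (SD, n = 3) of the receptor sum in CFA and 25.3% ± 4.7 in CSA, and Notch2 36.8% ± 2.7 in CFA and 44.8%, 45.7% and 60.8% in the CSA mice, the highest being CSA03. Heyl made up 60.3% ± 10.5 (SD, n = 3) of the target sum in CFA and 24.0% ± 3.7 in CSA, Hes1 14.5% ± 7.9 and 47.5% ± 5.0, and Hey1 2.34% ± 1.08 and 7.74% ± 2.77. Relative to Notch3 in the same mouse, Heyl was at 1.59 ± 0.71 on the log2 scale in CFA and at -0.60 ± 0.26 in CSA (SD, n = 3), a difference of -2.19 that was -2.34 without CSA03. Hes1 per Notch3 went the other way, with -0.52, -0.21 and -0.99 in CFA and 0.17, 0.24 and 0.73 in CSA. The difference was 0.95 without overlap. Notch3 itself had a log2 fold change of -1.32 here and Hes1 -0.37, beside a median of -0.04 over all genes. A gene at that median would also stand higher against Notch3, so this ratio is not a higher level of Hes1. In saline the same ratio was also higher without overlap, by 1.10 in CSS against CFS (two-sided exact permutation p = 0.1). Hey2 per Notch3 overlapped, with 0.55, -0.15 and 0.24 in CFA and -1.60, -1.34 and, in CSA03, 0.33 in CSA, a difference of -1.08 (two-sided exact permutation p = 0.3). This overlap came from CSA03 alone, as CSA01 and CSA02 lay below every CFA mouse. The shares of Notch1, Notch4 and Hey2 overlapped as well. The differences in both sums, in the other 5 shares and in the ratios of Heyl and Hes1 each had p = 0.1 in a two-sided exact permutation test, the smallest value that 3 against 3 mice allow, and 0.26 after adjustment over 26 such tests, so none could reach 0.05.

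**Figure D3:**
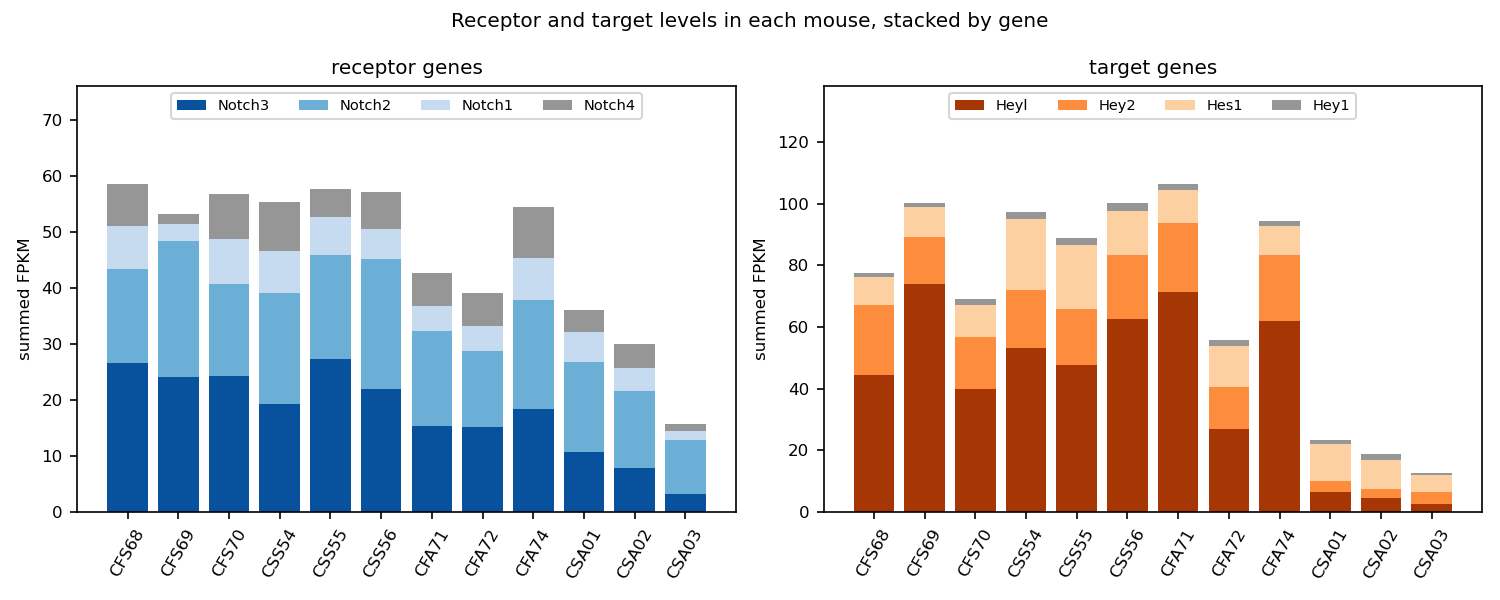
Summed FPKM (vertical axes) of the 4 receptor genes and the 4 target genes in each of the 12 mice, stacked by gene. Heyl, the largest block of the targets in the 9 other mice, is small in the 3 CSA mice, where the sums are 12.7 to 23.3 FPKM.

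Cell type markers were read beside these results, since fewer cells of a type and less RNA per cell cannot be told apart in whole tissue. All 10 smooth muscle markers were detected in every library, though Tagln stood at no more than 25.0 FPKM. Their summed level was 5699 to 10565 FPKM in the 9 mice outside CSA and 895 to 1007 in CSA, and 9 of the 10 were called lower in CSA than in CFA. Acta2, the smooth muscle actin, had a log2 fold change of -2.86 and Myh11, the smooth muscle myosin heavy chain whose promoter drives the Cre, of -4.18, beside -3.51 for Heyl and -2.40 for Hey2. Of 7 pericyte markers 3 were called lower, Rgs5 having -2.37 and Mcam -2.61. The list summed to 954 to 2186 FPKM outside CSA and to 301 to 337 in CSA. Most of this was Rgs5, at 561 to 1656 FPKM outside CSA and 160 to 194 in CSA. The list was split: without CSA03 Abcc9 had -1.25, Pdgfrb -0.13 and Kcnj8 0.054. Higd1b, at no more than 1.92 FPKM, had 1.24 without CSA03 (adjusted p = 0.0479, limma). Of 12 endothelial markers 3 were called lower and 1, Emcn, higher, with sums of 168 to 613 FPKM outside CSA and 196 to 260 in CSA, Pecam1 having -1.84, Vwf -2.36 and Emcn 1.56. Without CSA03 3 were called lower and 0 higher, Emcn having 1.22 (adjusted p = 0.0241, limma). Of 4 markers of arterial endothelium 2 were called lower, with sums of 30.2 to 135 FPKM outside CSA and 21.997 to 35.4 in CSA, Gja4 having -1.37 and Gja5 -2.56. Of the 9 macrophage markers that reach the filter on low values outside CSA 7 were called higher. All 10 summed to 259 to 720 FPKM outside CSA and to 2358 to 2531 in CSA, Lyz2 having 2.31 and C1qb 2.86. Cd163 went the other way, at 7.90 to 24.4 FPKM outside CSA and 3.89 to 10.1 in CSA. Without CSA03 it had -1.455 (adjusted p = 0.0165, limma), while with all mice 0 macrophage markers were lower by adjusted p. Mrc1 had 0.57 without CSA03 (adjusted p = 0.084, limma). The 6 neutrophil markers summed to 3.75 to 27.9 FPKM outside CSA and to 512 to 564 in CSA, S100a8 having 5.27 and S100a9 4.81. The 6 T cell markers summed to 0.291 to 3.44 FPKM outside CSA and to 25.5 to 35.1 in CSA, with Trac at no more than 1.32 FPKM outside CSA and at 9.63 to 13.8 in CSA, and Lck at no more than 0.753 and at 3.63 to 5.94. The 6 markers of dividing cells summed to 0.911 to 26.7 FPKM outside CSA and to 34.0 to 50.5 in CSA, with Mki67 at no more than 5.92 FPKM outside CSA and at 6.48 to 17.2 in CSA, and Top2a at no more than 6.62 and at 6.46 to 9.85. Outside CSA only 3 of the neutrophil, 0 of the T cell and 2 of the dividing cell markers reach the filter on low values, so the others were tested only because of their level in CSA, and no count of calls is given for these lists. Of 7 fibroblast markers 0 were called by limma, while 3 were higher and 2 lower by adjusted p alone, with sums of 1527 to 3138 FPKM outside CSA and 4570 to 5423 in CSA, Col1a1 having 0.97 and Col1a2 0.79. All 5 erythrocyte markers were called lower and 0 without CSA03, with sums of 134 to 2496 FPKM outside CSA and 63.2 to 621 in CSA, Hbb-bs having -3.07 and Hba-a1 -3.01. Of 6 adipocyte markers 2 were called lower, with sums of 42.8 to 470 FPKM outside CSA and 14.1 to 57.6 in CSA, while the most abundant, Adipoq and Cidec, had -1.71 (adjusted p = 0.0847, limma) and -1.84 (adjusted p = 0.0818, limma). Their part in the levels of the Notch genes was not tested.

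Each member was also expressed relative to the mean log2 level of a marker list in the same mouse. Against the smooth muscle markers Heyl stood at -1.85 ± 0.84 in CFA and at -2.31 ± 0.59 in CSA (SD, n = 3), and Hey2 at -3.22 ± 0.49 and -2.59 ± 0.35. The mice of the 2 groups overlapped for both, with two-sided exact permutation p values of 0.5 and 0.2. Without CSA03 the difference was -0.19 for Heyl, where it had been -0.47, and 0.46 for Hey2, where it had been 0.64, still with overlap. The other 8 members were higher against these markers in every CSA mouse than in every CFA mouse, by 1.72 for Notch3 (2.14 without CSA03), 1.80 for Notch4, 2.39 for Notch1, 2.62 for Hey1, 2.67 for Hes1, 2.68 for Notch2, 2.91 for Jag1 and 2.99 for Dll4. The mean of these markers was itself 3.04 log2 units lower in CSA (4.43 against 7.47), and 91.0% of all tested genes were higher against it without overlap, with a median difference of 3.002, so the count of 8 members is not a result about them. Against the endothelial markers Heyl differed by -2.86 and Hey2 by -1.76, and Notch3 by -0.68 (-0.29 without CSA03), all 3 lower without overlap, where 9.01% of all genes were. Notch2 (0.29), Jag1 (0.51) and Dll4 (0.59) were higher without overlap, where 41.2% of all genes were, while Notch1 (-0.01), Notch4 (-0.60), Hey1 (0.23) and Hes1 (0.27) overlapped. The mean of the endothelial markers itself differed by -0.643 log2 units between CSA and CFA. The median difference of all genes against it was 0.605, so the count of higher members is not a result about them. Without CSA03 Notch1 was higher without overlap (0.35), Notch4 (-0.17), Hey1 (0.45) and Hes1 (0.49) still overlapped, and Jag1 stood at 0.29. Against the macrophage markers, whose mean was 2.42 log2 units higher in CSA, all 10 members were lower without overlap, from -2.47 for Dll4 to -5.93 for Heyl, as were 86.7% of all genes, so this count is not a result about the members either. Where mice did not overlap the two-sided exact permutation p was 0.1, the smallest possible, and 0.222 after adjustment over 60 tests.

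**Figure D4:**
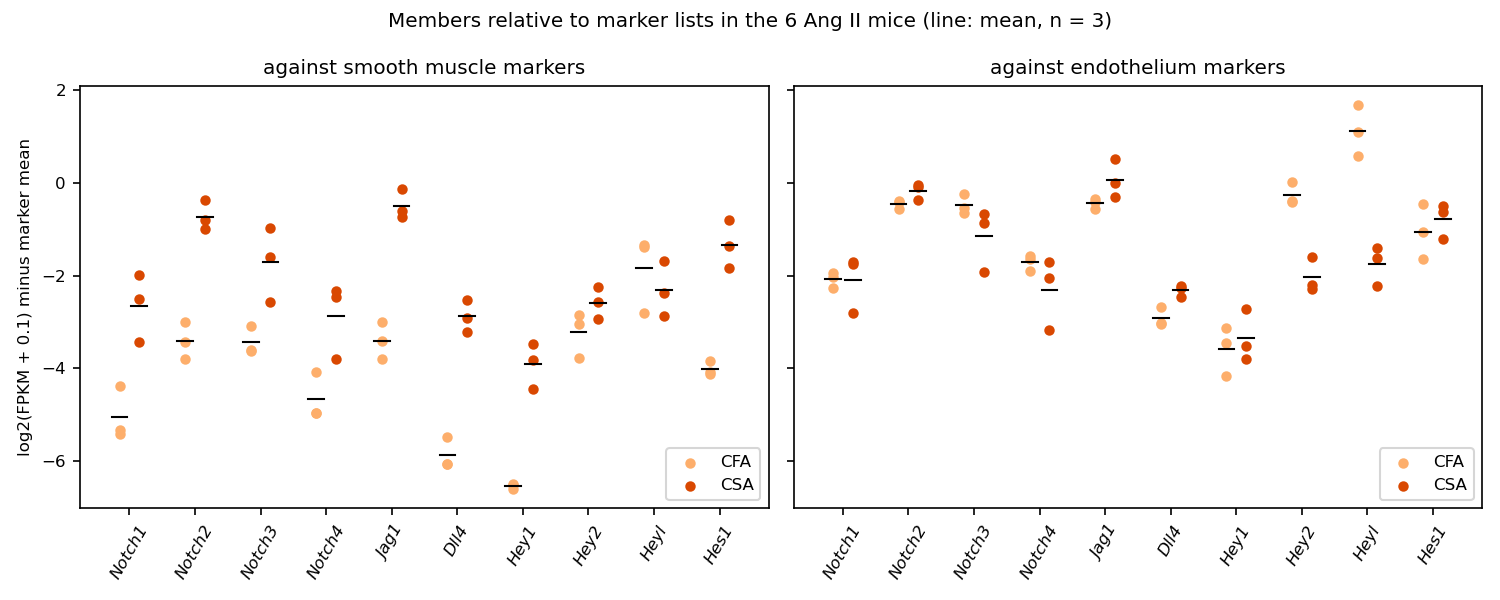
Log2(FPKM + 0.1) of each gene minus the mean of 10 smooth muscle or 12 endothelial markers in the same mouse (vertical axis), for the 3 CFA and 3 CSA mice (points, with lines at the means). CFA and CSA points overlap for Heyl and Hey2 against smooth muscle markers and are apart for them against endothelial markers.

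Outside the members, 55 genes of the pathway were grouped by role, and 49 passed the filter. Between CSA and CFA 3 of the 49 were called higher, where 8.95% of all genes were, and 2 lower, where 8.27% were. Neither count is above the share of all genes, so they are not a result about the pathway. The median log2 fold change was -0.15, beside -0.04 over all genes. Without CSA03 there were 3 higher and 3 lower. In CSS against CFS and in CFA against CFS 0 of the 49 were called by limma, and 0 passed the adjusted p without the fold limit.

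Among 3 tested other ligands 1 was called, Dner, a neuronal transmembrane protein that can bind Notch. It was at 1.72, 2.51 and 1.29 FPKM in CFA and at 0.07, 0.02 and 0.61 FPKM in CSA, all low levels (log2 fold change -2.94, adjusted p = 0.00199 by limma, and -3.71 without CSA03). Dll1, a Delta-like ligand, had -1.40 in this comparison (adjusted p = 0.0419, limma, and 0.0932 without CSA03) and was called lower in CSA than in CSS, at -2.29 (adjusted p = 0.00287, limma). Of 10 genes for receptor cleavage 0 were called between CSA and CFA by limma. Aph1b, a subunit of γ-secretase, came nearest at -1.49 (adjusted p = 0.002, limma) and was called without CSA03 at -1.62, and Adam17, a protease that sheds the receptor's outer part, was 0.97 higher (adjusted p = 0.000471, limma). Of these 10 genes 1 was called lower in CSA than in CSS, and 1 in the interaction. With CSA03 left out Aph1b was called in both, at -1.64 (adjusted p = 0.00185, limma) and -1.72 (adjusted p = 0.0125, limma).

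Of 5 genes for receptor glycosylation 1 was called, Lfng, which adds sugars that alter the response of Notch receptors to ligands. Lfng was at 4.54, 9.09 and 5.52 FPKM in CFA and at 34.8, 36.1 and 16.7 FPKM in CSA (log2 fold change 2.16, adjusted p = 0.00376 by limma, and 2.52 without CSA03). Of 11 genes of the nuclear complex 0 were called by limma, and 2 were lower by adjusted p alone, the coactivator Maml2 (-1.02, adjusted p = 9.51e-05) and the corepressor Spen (-0.70, adjusted p = 0.000273). With the GC trend removed Spen had -0.40 (adjusted p = 0.105, limma).

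Of 14 genes for endocytosis and turnover 2 were called, both higher and both ubiquitin ligases. Neurl3 was at 3.58, 5.61 and 3.08 FPKM in CFA and at 52.8, 46.5 and 25.2 FPKM in CSA (log2 fold change 3.29, adjusted p = 1.43e-05 by limma, and 3.61 without CSA03). Dtx3l was at 3.22, 4.66 and 4.01 FPKM in CFA and at 18.3, 16.1 and 30.2 FPKM in CSA (log2 fold change 2.37, adjusted p = 2.21e-05 by limma, and 2.10 without CSA03). The summed macrophage, neutrophil and T cell markers were higher in the same CSA mice, as given above, and their part in these levels was not tested. Of 6 tested other targets and feedback genes 1 was called, Efnb2, the arterial ephrin ligand, at 29.7, 19.95 and 31.3 FPKM in CFA and at 7.30, 6.49 and 7.07 FPKM in CSA (log2 fold change -1.91, adjusted p = 2.12e-05 by limma, and -1.93 without CSA03).

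**Figure D5:**
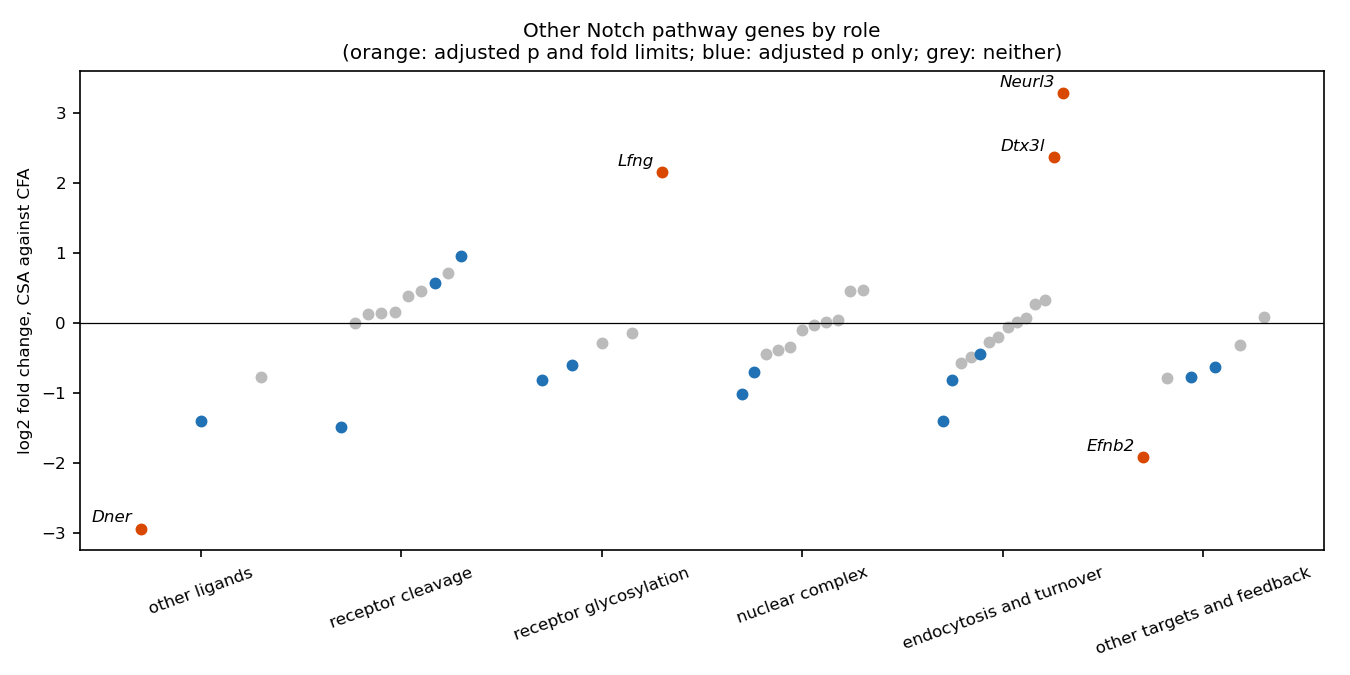
Log2 fold changes of CSA against CFA (vertical axis) for the 49 tested pathway genes outside the members, by role, each point 1 gene. The 5 named genes pass the adjusted p and fold limits, with Neurl3 at 3.29 the highest and Dner at -2.94 the lowest.

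The genes whose levels ran most nearly with Heyl and Hey2 over the 12 libraries were sought among 7777 tested genes with a mean of at least 5 FPKM. For Heyl they were Abcc1, a transporter, Itgb3, an integrin subunit, and Acot11, a thioesterase, with Pearson r of 0.993, 0.991 and 0.989. For Hey2 they were Crebl2, Trim32 and Gm7694, with r of 0.994, 0.990 and 0.986. The CSA mice form a cluster of their own in these genes, and within the other 9 mice r was 0.894, 0.935 and 0.916 for Heyl and 0.874, 0.894 and 0.875 for Hey2. These values only describe which genes were nearest, since the libraries are shared and the genes were taken as the highest of many.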

How the data were processed

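RNA-Seq of 12 mouse aortas (poly(A) RNA, paired 150-base reads) was used. The submitters' processing notes name HISAT2 2.0.5, StringTie 1.3.3b, featureCounts 1.5.0-p3 and the build mm10. The authors deposited FPKM per gene and mouse, already scaled between libraries: median log ratios were equal in all 12. All 12 columns were mapped by sample title, 0 left unused. Gene models were GENCODE M21 (GRCm38). With their lengths, 98.0% to 98.5% of values under 100 fragments were whole within 0.05. The authors' counts were not used here.

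Log2(FPKM + 0.1) was fitted with limma 3.58.1 in R 4.3.3 (trend and robust eBayes), with 1 coefficient per group over 12 libraries, for genes with at least 1 FPKM in at least 3 libraries. P-values were adjusted by Benjamini-Hochberg within each comparison. The fit was first tested on simulated data. Python 3.11.15, numpy 2.4.6, pandas 2.3.3 and matplotlib 3.10.9 made tables and figures.

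Members and lists were chosen with earlier results of these data known. The text names the members, pathway genes called in any comparison or else the 2 with the largest change of a list, the 2 most abundant genes of each marker list described, the 3 genes most like each called member, and Ccn2. Genes named outside this rule (Adam17, Emcn, Tagln, Abcc9, Pdgfrb, Kcnj8, Higd1b, Cd163, Mrc1) were chosen after their values were seen. Alternatives were a pseudocount of 1, other filters and scalings, other call limits, fewer groups and leaving out each mouse. Removal of the GC trend, sums, shares and ratios were added after the data were seen.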

Additional observations from a re-analysis of the deposited data

Results flagged for a closer look

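The effect of genotype differed between Ang II and saline, by limma's test of the difference itself with Benjamini-Hochberg adjustment, for Heyl (-3.60 on the log2 scale, adjusted p = 0.00114), Hey2 (-2.49, adjusted p = 0.000217) and Hes1 (-1.33, adjusted p = 0.0281). Over 19 alternatives the adjusted p of Hes1 ran from 0.00987 to 0.0711 by limma, so its call by adjusted p alone was lost in some of them. Heyl lay at 2.58 to 6.44 FPKM in CSA and at 26.8 to 71.3 in CFA, and Hey2 at 3.04 to 4.02 and 13.7 to 22.4. For both genes CSS and CFS mice overlapped. For Hes1 the order was the other way round, with 3 of 3 CSS mice above every CFS mouse and an overlap under Ang II. In saline 20.4% of all genes did not overlap, and the adjusted p of Hes1 there was 0.475 by limma.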

How the results depend on the processing

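Heyl and Hey2 kept their direction and their call between CSA and CFA under all 14 alternatives that were refitted for them, with log2 fold changes of -3.94 to -3.16 and -2.63 to -2.15 (adjusted p from 2.06e-05 to 0.00264 and from 2.56e-06 to 0.0011, limma). Under other settings the genes called between CSA and CFA numbered 1601 with a pseudocount of 1, 1095 at a mean of at least 5 FPKM and 5978 without the fold limit, where 2528 were called. For CSA and CSS these were 1918, 1272 and 6781, and 5 members were called without the fold limit. For the interaction they were 1078 at a mean of at least 5 FPKM and 3877 without the fold limit, and 2 to 4 members were called with a mouse left out, 4 without CSA01. For CSS and CFS 2 genes were called, and 5 with no filter, 1 at a mean of at least 5 FPKM, 4 at equal library sums, 132 at unadjusted p, 20 in a fit of the 2 groups, 1 with the GC trend removed and 0 to 4 with a mouse left out. For CFA and CFS 4 were called, and 10 at equal sums, 1 without trend and robust settings, 243 at unadjusted p, 0 in a fit of the 2 groups, 10 with the GC trend removed and 0 to 124 with a mouse left out, 124 without CFA74. Notch3 was no longer past the fold limit between CSA and CSS without CSA03 (-1.30) or with the GC trend removed (-1.32). Directions turned only where a member was not called. Dll4 between CSA and CFA was 0.028 at equal sums, 0.16 with the GC trend removed and -0.22 to 0.060 with a mouse left out, its interaction was 0.026 with the GC trend removed and -0.46 to 0.056 with a mouse left out, and between CSA and CSS it was -0.068 to 0.19 with a mouse left out. Between CSS and CFS with a mouse left out Notch1 was -0.26 to 0.45, Notch4 -0.22 to 0.80, Dll4 -0.11 to 0.41, Hey2 -0.030 to 0.26 and Heyl -0.082 to 0.36, the lowest value of the first 4 being that without CFS69. Between CFA and CFS Notch1 was -0.56 to 0.15, Notch4 -0.17 to 0.85, Jag1 -0.17 to 0.12, Hey2 -0.059 to 0.29 and Heyl -0.32 to 0.38. The cause was not tested. No paired analysis was possible because the groups share no mouse numbers.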
